A study of Mus musculus with 4 samples.

Results

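The nuclear factor I family holds 4 genes, Nfia, Nfib, Nfic and Nfix, which encode transcription factors. They were found by symbol on an Affymetrix array through probe sets that the array's annotation assigns to 1 gene each. All 4 genes were measured, by 6 of 35556 probe sets, and they stand among 19938 genes named in this way. Nfia and Nfib each had 2 probe sets, and Nfic and Nfix had 1 each. Levels were available for 4 regions of the brain of ICR mice, an outbred stock, at embryonic day 17.5. Tissue of 14 mice was pooled for the olfactory bulb, 16 for the superior colliculus, 13 for the cerebellum and 15 for the pontine nucleus, with 1 array for each pool. The superior colliculus receives visual input in the dorsal midbrain, and the pontine nucleus is a hindbrain relay to the cerebellum. No genetic change or treatment is named for any group.

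Nuclear factor I proteins bind DNA as dimers through a conserved domain at the amino terminus. The preferred site is a palindrome made of the half-site TTGGC, a spacer and its reverse complement, and the family can activate or repress the genes it binds. In the developing brain the family is known for driving progenitors toward glia and for the late maturation of neurons, including cerebellar granule neurons. Mice without Nfia lack a normal corpus callosum, and mice without Nfib have defects of the forebrain commissures and of the pons. Mice without Nfix have defects of the hippocampus and cerebellum, while Nfic is known mainly for its role in tooth roots. Neurons of the pontine nucleus and cerebellar granule neurons both come from the rhombic lip, a progenitor zone of the hindbrain, and axons of the pontine nucleus end on granule neurons as mossy fibres.

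The family's own sites were looked for in the 250 bases before each transcription start in the RefSeq promoter table of build GRCm38.p6, which held windows for Nfia, Nfic and Nfix, 6 in all. The motifs searched, on both strands, were the palindrome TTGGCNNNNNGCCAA, the shorter form TTGGCNNNNNGCC, which contains a half-site, and the half-site TTGGC itself. No Nfi window held the palindrome or the shorter form. The half-site was present in 2 of the 4 Nfix windows and in no Nfia or Nfic window. Among all 32851 windows of the same length, 41.5% held the half-site, 1.22% the shorter form and 0.0365% the palindrome, so a half-site alone is a common match. The Nfia window (chr4:97581693-97581942, plus strand) and the 2 Nfix windows with a match (chr8:84775829-84776078 and chr8:84772876-84773125, minus strand) are shown because both genes were highest in the pontine nucleus, as was Nfib. The windows of Fabp7 (chr10:57784673-57784922, plus strand) and Gabra6 (chr11:42321073-42321322, minus strand) are shown because both genes are known targets of the family. Capitals mark the matches. Sequences run 5′ to 3′ on the strand of the gene.
Nfia: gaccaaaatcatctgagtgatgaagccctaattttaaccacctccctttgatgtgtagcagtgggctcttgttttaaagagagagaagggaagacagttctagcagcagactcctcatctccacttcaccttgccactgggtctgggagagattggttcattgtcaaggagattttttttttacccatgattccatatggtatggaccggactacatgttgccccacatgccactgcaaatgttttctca
Nfix, start at the higher coordinate: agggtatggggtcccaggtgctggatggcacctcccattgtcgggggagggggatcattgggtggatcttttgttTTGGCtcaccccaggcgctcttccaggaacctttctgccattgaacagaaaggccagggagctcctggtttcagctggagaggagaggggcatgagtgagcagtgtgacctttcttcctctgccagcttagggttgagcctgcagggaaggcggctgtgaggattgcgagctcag
Nfix, start at the lower coordinate: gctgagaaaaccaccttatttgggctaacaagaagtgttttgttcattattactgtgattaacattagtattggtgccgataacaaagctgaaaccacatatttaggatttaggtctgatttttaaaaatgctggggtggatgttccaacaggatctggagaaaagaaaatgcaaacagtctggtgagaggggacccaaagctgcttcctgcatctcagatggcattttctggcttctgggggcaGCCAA
Fabp7: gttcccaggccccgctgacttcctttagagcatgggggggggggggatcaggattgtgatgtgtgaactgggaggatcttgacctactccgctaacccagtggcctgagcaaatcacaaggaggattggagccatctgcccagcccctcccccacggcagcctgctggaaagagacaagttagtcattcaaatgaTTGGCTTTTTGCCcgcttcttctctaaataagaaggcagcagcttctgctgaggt
Gabra6: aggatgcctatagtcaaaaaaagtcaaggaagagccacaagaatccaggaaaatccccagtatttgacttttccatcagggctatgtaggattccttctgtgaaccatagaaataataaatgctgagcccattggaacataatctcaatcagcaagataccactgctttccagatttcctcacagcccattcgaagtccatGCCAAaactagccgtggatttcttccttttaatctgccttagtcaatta
The Fabp7 match is the shorter form, read on the strand of the gene and beginning 55 bases before the start. The Gabra6 match, 49 bases before the start, is a half-site on the opposite strand. In the Nfix windows the match began 175 bases before the start on the gene's strand in the first, and 5 bases before it on the opposite strand in the other. A match describes letters in a window and is not evidence of binding.

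Levels are given as log2 signals, on which a difference of 1 unit is a 2-fold difference. The medians of the 4 arrays over all probe sets lay between 8.07 and 8.13. Markers of each region were highest on the array labelled with it, for example Dlx1 at 12.89 in the bulb, Pax7 at 11.21 in the colliculus, Atoh1 at 10.70 in the cerebellum and Hoxa2 at 12.41 in the pontine nucleus, each at no more than 8.59 on the other arrays. Genes with a highest level above 8.56, the 50th percentile over all genes and arrays, were compared. They numbered 10908 and included all 4 Nfi genes. With 1 array per region there is no SD and no p-value, and what separates the regions cannot be told apart from what separates single pooled preparations. In bulk tissue, fewer cells of a type and less RNA per cell cannot be told apart either. As a yardstick of array noise only, 207 vomeronasal receptor and beta defensin genes had a 95th percentile level of 7.32, and 95% of their differences between 2 arrays were at most 0.41.

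Nfia, Nfib and Nfix were all highest in the pontine nucleus and second highest in the cerebellum, while Nfic was nearly level over the 4 regions. In the pontine nucleus the levels of Nfia, Nfib and Nfix exceeded those in both the olfactory bulb and the superior colliculus by at least 1 log2 unit. Of all compared genes, 1.17% met that rule, against 3 of the 4 Nfi genes. The order with the pontine nucleus first and the cerebellum second was found in 3 of 4 Nfi genes, in 5 of their 6 probe sets, and in 6.55% of all compared genes. Both rules follow the pattern seen in these same levels, so the shares describe that pattern and do not test it. By the region rule, that of lying at least 1 log2 unit above all 3 other arrays, 1 of the 4 genes passed in the pontine nucleus. It was Nfix, against 0.798% of all compared genes. The region rule too was chosen with earlier results of these data known.

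Nfix, the family member known for postnatal brain development, had the widest range of the 4. It read 10.89 in the olfactory bulb, 11.58 in the superior colliculus, 12.39 in the cerebellum and 13.86 on the pontine array (probe set 10580191). The pontine nucleus was high, the olfactory bulb was low, and the other regions lay between them. The pontine level was 2.77-fold that in the cerebellum and 7.84-fold that in the olfactory bulb. Its range of 2.97 log2 units was wider than that of 99.0% of all compared genes, and the pontine reading was brighter than 99.8% of the probe sets on that array. The gaps between successive regions, from the highest down, were 1.47, 0.81 and 0.69, each larger than the 0.41 of the background genes.

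Nfib, whose loss is known to affect the pons, showed the same leading regions with both probe sets. The brighter set (10514054) read 11.90 in the olfactory bulb, 11.72 in the superior colliculus, 12.74 in the cerebellum and 13.72 on the pontine array. The dimmer set (10514049) read 10.05, 9.96, 11.15 and 12.91 in the same order. Both sets were high in the pontine nucleus, intermediate in the cerebellum, and lowest in the bulb and the colliculus. The brighter set gave a pontine level 1.97-fold that in the cerebellum and the dimmer set 3.39-fold, or differences of 0.98 and 1.76 log2 units. These fall on either side of the size rule. The olfactory bulb and the superior colliculus differed by 0.18 and 0.09, less than the 0.41 of the background genes, so these regions have no settled order for Nfib. The range of the brighter set, 2.0, exceeded that of 96.4% of compared genes.

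Nfia, the member known for starting the switch of progenitors to glia, was high in both the pontine nucleus and the cerebellum. Its brighter probe set (10506031) read 11.63 in the olfactory bulb, 11.04 in the superior colliculus, 12.47 in the cerebellum and 12.77 on the pontine array. The dimmer set (10506050) read 10.39, 9.74, 11.20 and 12.11. Both gave the same order, with the superior colliculus lowest. The pontine nucleus and the cerebellum differed by 0.30 with the brighter set, less than the 0.41 of the background genes, and by 0.91 with the dimmer set. The olfactory bulb lay 0.59 and 0.65 above the superior colliculus with the 2 sets. The range was 1.73 with the brighter set, a 3.32-fold difference, and 2.37 with the dimmer set, a 5.17-fold difference. For both Nfia and Nfib the dimmer set therefore gave the wider range. Where on the transcripts the sets lie was not examined, and their share in different transcript forms was not tested.

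Nfic was the exception. It read 9.55 in the olfactory bulb, 9.59 in the superior colliculus, 9.98 in the cerebellum and 9.91 on the pontine array (probe set 10371176). The cerebellum and the pontine nucleus read slightly higher than the other regions, but only the gap of 0.43 between the cerebellum and the bulb exceeded the 0.41 of the background genes. This range was a 1.35-fold difference, which is wider than that of 54.1% of all compared genes and thus ordinary among them. The cerebellum lay 0.07 above the pontine nucleus, an order that turned to -0.04 with the arrays centred on their median gene level, and the superior colliculus lay 0.04 above the olfactory bulb. Nfic was above the background level of 7.32 on every array.

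**Figure D1:**
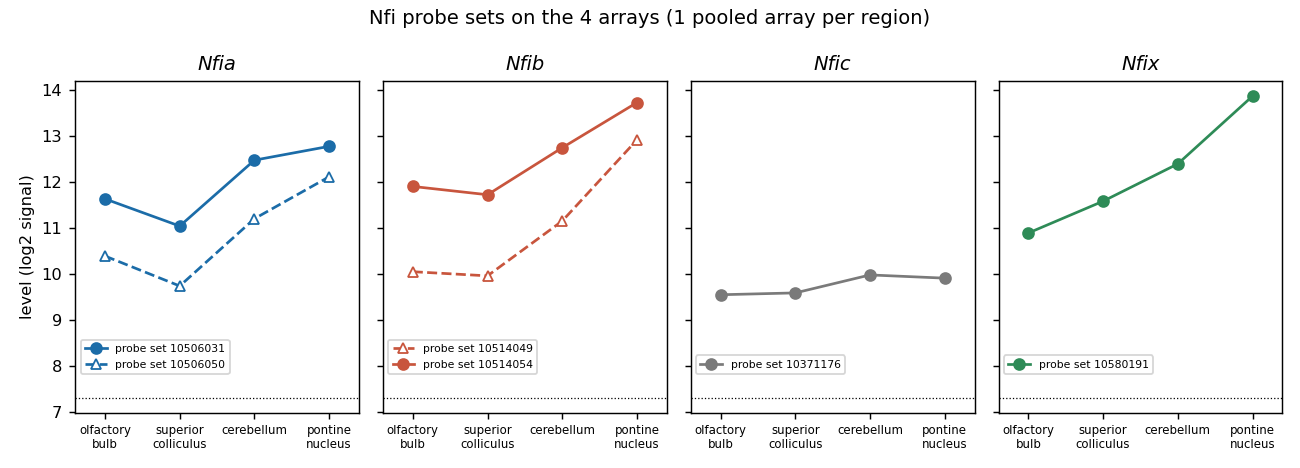
Levels of the 6 Nfi probe sets (vertical axis, log2 signal) in the 4 regions, 1 pooled array each. Filled circles are the brighter probe set of a gene, open triangles the dimmer one, lines join values of 1 probe set, and the dotted line is the background level of 7.32. Nfia, Nfib and Nfix peak in the pontine nucleus, at up to 13.86 for Nfix, while Nfic stays between 9.55 and 9.98.

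The regions were next compared in pairs, with a difference of at least 1 log2 unit as the size rule and the brighter probe set as the level of a gene. In the pontine nucleus Nfia, Nfib and Nfix passed the rule over the superior colliculus, by 1.73, 2.0 and 2.28. Only 1.72% of all compared genes were higher in the pontine nucleus by as much as the rule requires. Over the olfactory bulb the same 3 genes passed, by 1.14, 1.82 and 2.97, against 2.57% of all compared genes. Of these differences that of Nfix was larger than 99.5% of the differences of all compared genes between those regions. Both comparisons use the same pontine array and are not independent of each other.

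The cerebellum also exceeded the bulb and the colliculus. Nfia and Nfib were higher in the cerebellum than in the superior colliculus, by 1.43 and 1.02, where 3.08% of compared genes passed in that direction, and Nfix missed the rule with 0.81. Against the olfactory bulb only Nfix passed, by 1.50, where 2.06% of compared genes passed. Nfia and Nfib each lay 0.84 above the bulb. Nfic read 0.39 and 0.43 above the colliculus and the bulb.

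Between the pontine nucleus and the cerebellum, Nfix alone passed, higher in the pontine nucleus by 1.47, against 1.88% of all compared genes. In the pontine nucleus it was also the single member that passed the stricter rule of lying at least 1 log2 unit above all 3 other arrays, which 0.798% of compared genes did there. With each gene taken as the mean of its probe sets, Nfib passed both rules as well, at 1.37 above the cerebellum, which raises the count from 1 to 2 of 4 genes. The count was also 2 with the arrays centred on their median gene level. No member differed by 1 unit between the olfactory bulb and the superior colliculus, where 5.67% of all compared genes did in either direction. There Nfia was higher in the bulb by 0.59, while Nfix was higher in the colliculus by 0.69.

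**Figure D2:**
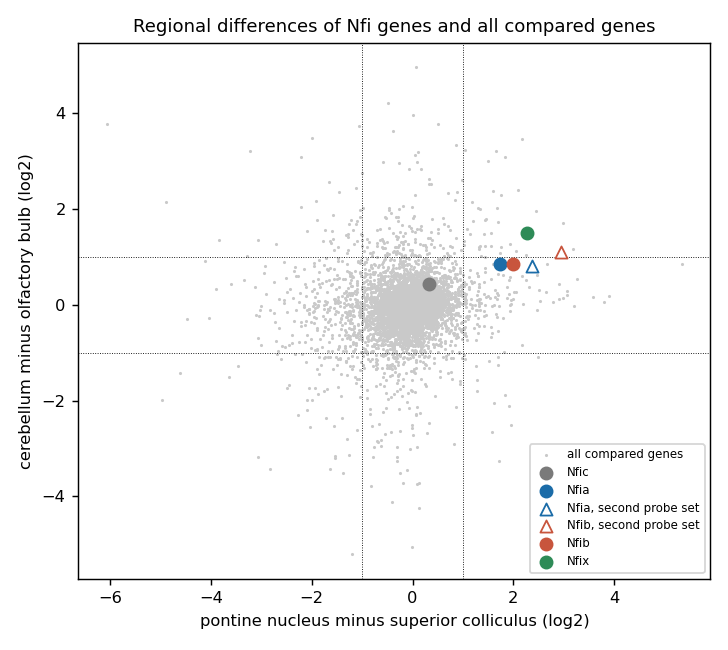
Pontine level minus that in the superior colliculus (horizontal axis, log2) against the cerebellar level minus that in the olfactory bulb (vertical axis, log2), which use separate arrays. Grey points are the 10908 compared genes, circles the brighter and triangles the dimmer Nfi probe sets, and dotted lines mark differences of 1. Nfia, Nfib and Nfix lie to the right of the dotted line at 1, at 1.73 to 2.28 with their brighter sets, and Nfic lies inside the dotted lines at 0.32 and 0.43.

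Of the genes under Nfi control in cerebellar granule neurons, those that varied by at least 1 log2 unit were highest in the olfactory bulb. The list held Gabra6, Cntn2, Efnb1, Cdh2, Ncam1 and Wnt7a, of which 5 were compared and 3 had a range of at least 1 log2 unit over the arrays, against 15.0% of all compared genes. The ligand gene Wnt7a read 10.54 in the olfactory bulb against 8.66 in the superior colliculus, 8.07 in the cerebellum and 8.99 on the pontine array. Efnb1, which encodes the contact-dependent guidance ligand ephrin-B1, was also highest in the bulb, at 10.85 against 9.20 to 9.72. Cntn2, an adhesion molecule of growing axons, was high in the bulb and the pontine nucleus, at 11.82 and 11.73, and lower in the cerebellum and the colliculus, at 10.54 and 10.48. The bulb was thus highest for 3 of the 5 compared genes, beside 2967 of all 10908 compared genes. For Cntn2 its lead over the pontine nucleus was 0.09, less than the 0.41 of the background genes. The adhesion genes Cdh2 and Ncam1 varied less and lay toward the pontine nucleus. Cdh2 was highest there, at 12.79 against 12.39 to 12.55, and Ncam1 read 13.21 both there and in the colliculus, against 12.69 and 12.70. Cdh2 was thus the 1 gene of 5 with its highest level in the pontine nucleus alone, where 28.4% of all compared genes had theirs. Gabra6, the GABA-A receptor subunit gene that marks mature granule neurons, read 5.97 to 6.12 on all arrays, within the range of the background genes. Set against the mean of the remaining arrays, the compared members had a median difference of 0.90 in the bulb and -0.54 in the colliculus. The median difference was -0.34 in the cerebellum and 0.29 on the pontine array. Over all compared genes the medians in that order were 0.03, 0.00, -0.06 and -0.0033.

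Genes tied to the family in progenitors and glia did not share the pontine peak of Nfia, Nfib and Nfix, apart from Aqp4, the 1 gene of 12 that was highest there, against 28.4% of all compared genes. Of 15 listed genes 12 were compared and 5 had a range of at least 1, against 15.0% of all compared genes. These were Aqp4, Aldh1l1, Sox9, Apcdd1 and Slc1a3. Of the 12, 9 were highest in the cerebellum, and 6 were lowest on the pontine array, beside 17.9% and 26.0% of all compared genes. The 9 cerebellar leads over the next region ran from 0.03 to 0.38, each less than the 0.41 of the background genes. On the pontine array Apcdd1, Sox9 and Hes1 lay 0.76, 0.74 and 0.47 below the next region. Aldh1l1, Hes5 and Zcchc24 lay at most 0.20 below it, again less than 0.41. Against the mean of the remaining arrays the 12 genes had a median difference of 0.25 in the bulb, -0.11 in the colliculus, 0.38 in the cerebellum and -0.34 on the pontine array, beside 0.03, 0.00, -0.06 and -0.0033 over all compared genes.

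Sox9, the transcription factor that acts with Nfia at the onset of gliogenesis, read 10.89 in the olfactory bulb, 10.61 in the superior colliculus, 11.16 in the cerebellum and 9.87 on the pontine array. Its joint target with Nfia, the Wnt inhibitor gene Apcdd1, read 11.40, 11.09, 11.57 and 10.33. Both were lowest in the pontine nucleus, where Nfia was highest and where 26.0% of all compared genes were lowest. Both were highest in the cerebellum, where Nfia lay 0.30 below its pontine level with the brighter set and 0.91 with the dimmer set. The cerebellar leads of Sox9 and Apcdd1 over the bulb, 0.27 and 0.17, were less than the 0.41 of the background genes. The other joint targets, Mmd2 and Zcchc24, read 11.28 and 8.84 in the pontine nucleus, with ranges of 0.85 and 0.66 over the arrays.

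Slc1a3, the glutamate transporter gene of radial glia and astrocytes, read 12.58 in the cerebellum and 12.33 in the bulb against 11.58 in the pontine nucleus and 11.38 in the colliculus. Aldh1l1, a folate enzyme gene of astrocytes, read 10.49 in the bulb, 9.76 in the colliculus, 10.87 in the cerebellum and 9.56 on the pontine array. Aqp4, the water channel gene of astrocytes, differed from these. It read 8.10 in the olfactory bulb, 9.25 in the superior colliculus, 9.09 in the cerebellum and 10.68 on the pontine array, a range of 2.58, and like Nfix it was highest in the pontine nucleus and lowest in the bulb. Fabp7, the radial glial fatty acid-binding protein gene whose window holds the shorter form of the site, was bright and level on all arrays, at 13.93 to 14.03. Gfap, the classical astrocyte target, read at most 7.50, close to the background level.

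Hes1, Ezh2 and Bbx, which members of the family are known to repress in progenitors, each had a range under 1 log2 unit. Hes1 and its relative Hes5, effectors of Notch signalling, had ranges of 0.78 and 0.44 and were lowest in the pontine nucleus, at 7.82 and 9.64. For Hes5 the gap to the next region was 0.15, less than the 0.41 of the background genes. Ezh2, the histone methyltransferase gene, read 11.92 in the bulb, 11.42 in the colliculus, 11.95 in the cerebellum and 11.80 on the pontine array. Bbx read 9.26 to 9.35 in all regions but the colliculus, where it read 8.54.

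Of 9 partners and regulators of the family, 8 were compared. Of the 8, 3 had a range of at least 1, against 15.0% of all compared genes, and these were Etv1, Pou3f2 and Sox2. Each was highest in the olfactory bulb, as were 2967 of all 10908 compared genes. The bulb led the next region by 1.65 for Etv1. Its lead was 0.26 for Pou3f2 and 0.31 for Sox2, less than the 0.41 of the background genes. Another 2 of the 8, Zbtb20 and Ski, were highest in the pontine nucleus, by 0.06 and 0.11, against 28.4% of all compared genes. The remaining 3, Rest, Nfatc3 and Trim28, were highest in the cerebellum, by 0.28, 0.31 and 0.18, against 17.9% of all compared genes. All these pontine and cerebellar leads were less than 0.41 as well. Etv1, an ETS factor that acts with Nfi proteins in maturing granule neurons, read 12.16 in the olfactory bulb against 10.34 to 10.51 elsewhere. Pou3f2, a POU factor of neural progenitors and upper layer neurons, read 8.65 in the pontine nucleus against 10.71 in the bulb, 10.45 in the colliculus and 9.82 in the cerebellum. Sox2, the progenitor factor, was also lowest in the pontine nucleus, at 9.88 against 10.64 to 11.18. Zbtb20, a zinc finger factor of hippocampal neurons and astrocytes, was high in the bulb and the pontine nucleus, at 11.59 and 11.65, against 10.76 in the cerebellum and 10.80 in the colliculus. Ski, a transcriptional corepressor gene, read 11.31 in the pontine nucleus against 10.78 to 11.20. Nfatc4, a calcium-dependent factor that delays Nfi activity in granule neurons, read 7.62 to 8.37 and was not compared. Rest, a repressor of neuronal genes, had a range of 0.69, from 8.23 in the pontine nucleus to 8.92 in the cerebellum.

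**Figure D3:**
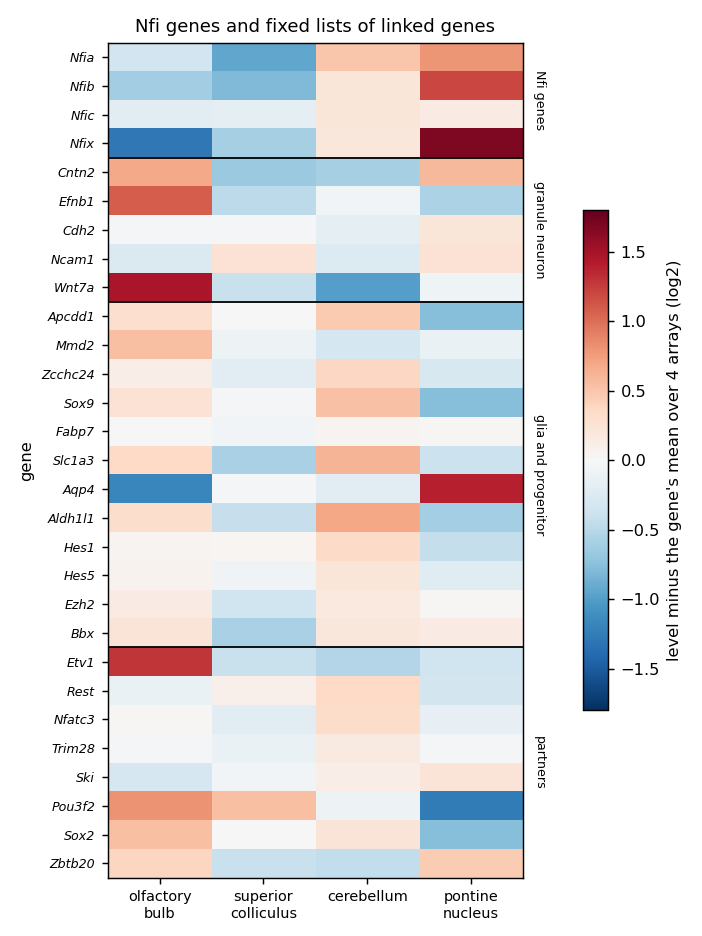
Each row is a gene and each column a region, and colour gives the level minus that gene's mean over the 4 arrays (log2). Rows are the 4 Nfi genes and the compared members of 3 lists of linked genes, separated by black lines. The pontine column is red for Nfia, Nfib, Nfix and Aqp4 and blue for Sox9, Apcdd1, Sox2 and Pou3f2.

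Levels of cell type markers differed between the arrays, and the part of tissue makeup in the Nfi levels was not tested. All 10 measured genes of cell division were highest in the cerebellum and lowest in the superior colliculus. Their cerebellar leads over the bulb ran from 0.18 to 0.69. They lay only 0.13 to 0.32 lower in the colliculus than in the pontine nucleus, less than the 0.41 of the background genes, except Ccna2 at 0.45. Of all 10908 compared genes, 1949 were highest in the cerebellum and 2446 lowest in the superior colliculus. The summed linear signal of the cell division genes was 16300 in the olfactory bulb, 6520 in the superior colliculus, 22500 in the cerebellum and 7890 on the pontine array. The cerebellum and the bulb were thus high and the pontine nucleus and the colliculus low. Of 7 compared genes of radial glia and progenitors, 2 exceeded the mean of the remaining arrays in the pontine nucleus, with a median difference of -0.35, against 49.5% of all compared genes with a median of -0.0033. Of 9 genes of postmitotic neurons 8 did, with a median difference of 0.28, and their summed signal ran from 55800 in the cerebellum to 65500 in the pontine nucleus. Their mean log2 level gave another order, with 12.50 in the pontine nucleus, 12.37 in the cerebellum, 12.31 in the colliculus and 12.10 in the bulb. Of the 9 neuron genes 4 were highest in the pontine nucleus, against 28.4% of all compared genes, 2 in the cerebellum, 2 in the colliculus and 1 in the bulb. Among the 4 was Rbfox3, the gene of the neuronal nuclear marker NeuN, at 11.44 against 10.42 to 11.11. The pontine leads of the 4 ran from 0.04 to 0.33, less than the 0.41 of the background genes.

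Markers of other cells were summed in the same way. For the 5 genes of the oligodendrocyte lineage the summed signal lay between 2700 in the bulb and 3690 in the cerebellum, for the 6 endothelial genes between 3640 and 4090, and for the 5 microglial genes between 1560 and 1920. The 7 astrocyte genes summed to 6000 in the pontine nucleus against 5120 to 6920 elsewhere. The bulb had the largest of these sums, but the mean log2 level was 9.12 in the bulb and the colliculus. It was 9.35 in the pontine nucleus and 9.38 in the cerebellum. The 6 genes of meninges and fibroblasts summed to 3950 in the bulb against 1780 to 2370 elsewhere, and among them Dcn, a proteoglycan gene of fibroblasts, had a range of 3.51, from 7.08 in the cerebellum to 10.59 in the bulb. The 4 choroid plexus genes were below the level floor on all arrays, with Ttr at 6.49 to 7.71. Red blood cells had only 2 of 6 listed genes measured here, of which Alas2 read 8.76 to 9.51.

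Genes whose levels followed the Nfi genes over the 4 arrays were found by the root mean square difference between profiles, after subtracting each gene's own mean, among 10475 compared genes. For Nfia the nearest were Cnksr3, Ndst3 and Chd7, at 0.10, 0.12 and 0.17 log2 units. Chd7, a chromatin remodeller gene known from cerebellar development, read 11.26 in the bulb, 10.76 in the colliculus, 12.53 in the cerebellum and 12.70 on the pontine array. For Nfib they were Robo3, Antxr1 and Plxnd1, at 0.12, 0.15 and 0.16. Robo3, the receptor that lets axons of pontine and other hindbrain neurons cross the midline, read 7.25, 7.11, 7.82 and 9.05 in the same order of regions, so that it lay near the background level of 7.32 outside the pontine nucleus, where differences are compressed. Plxnd1, a semaphorin receptor gene, read 9.87, 9.46, 10.49 and 11.25.

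Nfix had no gene as near, with Antxr1 at 0.27, Kcnk9 at 0.29 and Ak4 at 0.33. Antxr1, an anthrax toxin receptor gene, appears for both Nfib and Nfix and read 9.25, 9.42, 10.37 and 11.47. Kcnk9, a potassium leak channel gene, read 9.26, 9.97, 10.49 and 11.52. The neighbours of Nfic, namely Gjc1, Iqgap2 and Numa1, had root mean square differences of 0.018 to 0.022. The 50th nearest gene still lay at 0.08, compared with 0.56 for Nfix. With 4 arrays a likeness of this kind is a description of profiles only.

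**Figure D4:**
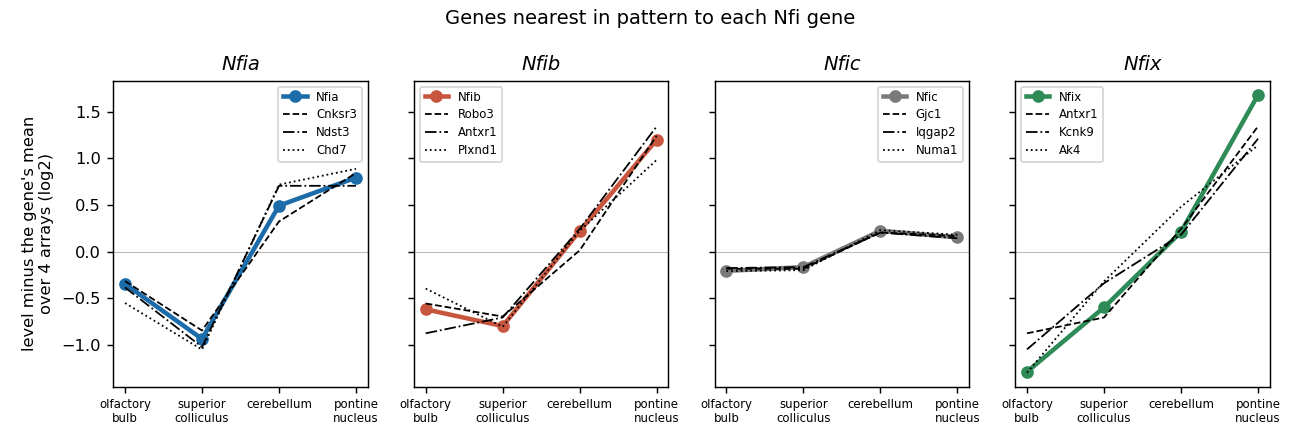
Level minus the gene's mean over the 4 arrays (vertical axis, log2) in each region for each Nfi gene (coloured line) and the 3 genes nearest to it in pattern (black lines). The neighbours of Nfic depart from it by at most 0.03 on any array (rounded), while those of Nfix peak lower than Nfix in the pontine nucleus.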

How the data were processed

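Total RNA of 4 pooled brain regions was converted to sense-strand cDNA and hybridised to 1 Affymetrix array each, per the labels' protocols. The authors' deposited table holds 1 log2 value per probe set and array, a scale inferred from the values. Affymetrix Expression Console was used, per the submitters' processing notes. For its version, its background correction and scaling, and the build, the sources used here give nothing. Scaling between arrays can remove differences in total RNA per cell, and array signals compress the folds of dim and of very bright genes.

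Probe sets were named by the array's annotation of 2016, in which 21789 had 1 symbol, 1621 several and 12146 none. The 4 Nfi genes matched RefSeq (GRCm38.p6) by Entrez ID. Where a gene had several probe sets, as 999 did, the brightest on average gave its level. From each list the 4 compared members with the widest range were named, with others named for their role, and for each Nfi gene the 3 nearest in pattern, leaving out predicted genes, small RNAs, pseudogenes and olfactory or vomeronasal receptors. Members, lists and rules were chosen with earlier results of these data known. No test between regions was made, since each has 1 array, and the number of arrays limits the precision. The code of the size rule was checked on simulated levels with known shifts larger than the threshold and less noise than the background genes showed. Such a check cannot show how the rule behaves on single pooled arrays. Alternatives were 2 other scalings, the mean of probe sets, other level floors, a 2-unit threshold and, as comparator, the mean of the remaining arrays. Python 3.11.15, NumPy 2.4.6, pandas 2.3.3 and Matplotlib 3.10.9 were used.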

Additional observations from a re-analysis of the deposited data

How the results depend on the processing

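Differences of single Nfi genes between regions kept their direction and their side of the 1-unit rule under quantile normalization, which moved the median of compared genes by at most 0.025 on any array, and with no level floor. With each array centred on its median gene level, which raised the pontine array by 0.0775, the cerebellar minus the pontine level turned from 0.07 to -0.04 for Nfic and passed the rule at -1.09 for Nfib. Members past the region rule numbered 1, and 2 under that centring or with the mean of probe sets, 3 against the mean of the other arrays and 0 with a threshold of 2 log2 units. Between the cerebellum and the pontine nucleus the count of 1 became 2 under the same centring and with the mean of probe sets, and 0 with the 2-unit threshold. The 2-unit threshold was missed by 7 of the single differences past 1 unit. It lowered the count of Nfi genes past the rule in the pontine nucleus over the colliculus from 3 to 2. Nfia, at 1.73, was the gene lost there. Over the bulb the pontine count fell from 3 to 1. The cerebellar counts, set against the bulb or the colliculus, became 0. In the lists, 1 granule neuron gene, 1 glial and progenitor gene and 1 partner had a range of at least 2 log2 units. Quantile normalization, no level floor and the 75th percentile floor, which were the other settings run for the lists, gave the same list counts as reported. With the level floor at the 75th percentile, 10.03, Nfic was not compared. For each Nfi gene compared at least 2 of the 3 nearest genes stayed the same under the other measure and floor. No paired analysis was possible because each region has a single array. The absence of replicates, not the signal over background, limits the precision for Nfi genes, which all lay above 9.5 on every array.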

Other observations

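Genes of astrocytes were split in the pontine nucleus, where Nfia, Nfib and Nfix were highest. Aqp4 and the growth factor receptor gene Fgfr3 were highest there, at 10.68 and 9.80, with Fgfr3 at 9.74 in the superior colliculus, 8.68 in the cerebellum and 8.06 in the olfactory bulb. Gja1, the gap junction gene of astrocytes, read 9.50 in the pontine nucleus and 9.01 in the colliculus against 10.38 in the cerebellum and 10.62 in the bulb. Slc1a2, the main glutamate transporter gene of mature astrocytes, was lowest in the pontine nucleus, at 10.63 against 10.87 to 11.54. These genes were picked after their values were seen.

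Among the postmitotic neuron genes the neurofilament genes Nefm and Nefl had the widest ranges, 2.62 and 1.24, and both were highest in the cerebellum and lowest in the olfactory bulb. Nefm read 11.07 in the cerebellum, 9.59 in the pontine nucleus, 9.26 in the superior colliculus and 8.45 in the bulb.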
